A study of Drosophila melanogaster with 23 samples.

Results

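Chromosome 4 of Drosophila melanogaster carries 80 annotated protein-coding genes, and the 78 that remained after leaving out RpS3A and ATPsynbeta (symbols starting with RpS, RpL or ATPsyn) were examined for binding by Mzfp1, the zinc finger protein encoded by CG1603. They were taken from 13861 protein-coding genes of the assembled chromosomes chosen in the same way. Chromosome 4 is 1348131 bp long in the dm6 assembly, which is 0.98% of the assembled length. Binding was measured by chromatin immunoprecipitation and sequencing (ChIP-seq) of whole organisms, and the deposited peak lists gave the position, width and fold enrichment over control of each bound region. A gene was called bound in a list when a region overlapped the window of 200 bp either side of one of its transcription start sites (TSSs).

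The 10 lists came from 18 ChIP libraries. Adult flies aged 2 to 3 days carried a transgene for HA-tagged Mzfp1 driven by a ubiquitin promoter and inserted at an attP site of the ZH-86Fb line, balanced over TM6,Tb (the methods name a Ubi-p63E promoter and several lines kept per construct). The tagged protein lacked its second MADF domain (ΔM2-HA, U:Mzfp1deltaM2/TM6,Tb) or a region that contacts CP190 (Δ42-HA, U:Mzfp1delta42/TM6,Tb). In other flies it lacked zinc fingers 3 to 6 of the C-terminal cluster (ΔZF-HA, U:Mzfp1deltaZf/TM6,Tb) or was full-length (wt-HA, U:Mzfp1WT/TM6,Tb). The study mapped another CP190-contacting region, which Δ42-HA keeps, and protein with the Δ42 deletion still bound CP190 weakly in co-immunoprecipitation. By the methods of the study these 4 lines also carried a CG1603attP deletion over CyO, so 1 endogenous copy of the gene remained in each. Anti-HA was thus directed at the tagged protein alone, whereas anti-Mzfp1 raised in rat could precipitate tagged and endogenous protein together. The antigen for anti-Mzfp1 included the stretch missing from Δ42-HA, and how well the antibody precipitates Δ42-HA was not tested here. ΔM2-HA, Δ42-HA and wt-HA flies were precipitated with both antibodies and ΔZF-HA flies with anti-HA only. Untagged y1w1118 adults were precipitated with anti-Mzfp1, and y1w1118 embryos with anti-Mzfp1 from rat or rabbit. Each adult list was made from 2 libraries and each embryo list from 1. By the immunoblots of the study, ΔM2-HA was more abundant than wt-HA, Δ42-HA less abundant, and wt-HA was several times above the protein of y1w1118 flies. Protein amount therefore differs between the groups, and its part in the differences below was not tested.

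Chromosome 4, the small dot chromosome, is known for its mixed chromatin. Its genes lie among repeats that are marked by the heterochromatin protein HP1a, many of them are nevertheless transcribed, and the chromosome-specific protein POF binds the transcribed genes. Several of its genes are textbook regulators, among them ci of the Hedgehog pathway, pan of the Wingless pathway and the eye selector genes ey and toy. Mzfp1 has an N-terminal zinc finger, a pair of MADF domains, which in other proteins contact DNA or protein partners, and a C-terminal zinc finger cluster.

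To show the DNA under these regions, a 15 bp matrix was trained on the 500 strongest y1w1118 regions of all chromosomes except 4 and was then run over chromosome 4. It started from the word TATCGATA, which reads the same on both strands, is the core of the DNA replication-related element of many fly housekeeping promoters, and was present near the summit in 82 of 500 training regions against 13 of 1000 flanks. A match was a score above that of 98% of the flanks, searched on both strands within 100 bp of a summit. Of the training regions 25.8% had a match. The matrix was not compared with the Mzfp1 motif that the study reported, so a region without a match may still hold that motif. The lines below give the 6 member promoters with a match in y1w1118 adults, followed by the best-scoring stretch at 3 strong promoters without one. Sequence is that of RefSeq for dm6, and capitals mark the 15 bp compared with the matrix.
Eph: ttataaaAGTTATCGATACCAGttgtttta
Hcf: cagaagaaAAATATCGATACATAgattgct
PlexA: tacctatCACTATCGATACCTAaattaacc
PMCA: aatattcTAATATCGATGTATTttcacatg
CG11360: aatattacAACTATCGATGTCTCagagatg
eIF4G1: ttcttgtgTGCTATCGATGTTTCaaataat
anne and Ank: aaaaatatTCAAATAGATATTTAcactggc
CG31998: tatatcgtTGTTACCGATTATTGatcgaat
4E-T: gcttagtcTGGTATCGCTTTAGCaccagta
The matched stretches lie on dm6 at chr4:610693-610722 (plus strand) for Eph, chr4:359916-359945 (minus) for Hcf, chr4:1027150-1027179 (plus) for PlexA, chr4:358736-358765 (plus) for PMCA, chr4:671103-671132 (minus) for CG11360 and chr4:930716-930745 (minus) for eIF4G1. The unmatched ones lie at chr4:132157-132186 for anne and Ank, chr4:205955-205984 for CG31998 and chr4:958502-958531 for 4E-T, all on the minus strand. The centre of the match was 8 to 93 bp from the nearest TSS of the gene in the 6 promoters, closest at Hcf. Among strong promoters of y1w1118 adults, anne with Ank scored 2.92 and CG31998 scored 4.63, below the threshold of 12.7, and Eph scored 13.3. The region at Crk held TATCGATA but scored 12.2.

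Binding at the members was counted in every list and is given beside the share over all 13861 genes. With anti-HA, 48 of 78 members (61.5%, 95% Wilson interval 50.4 to 71.6%) were bound in ΔM2-HA flies, beside 16.3% of all genes. In Δ42-HA flies 47 members were bound (60.3%, 49.2 to 70.4%), beside 14.0% of all genes. In ΔZF-HA flies 10 were bound (12.8%, 7.12 to 22%), beside 5.04% of all genes. In wt-HA flies 35 were bound (44.9%, 34.3 to 55.9%), beside 3.48% of all genes. The 3 variant lists held 6187 to 6215 regions over all chromosomes, against 553 in the wt-HA list, so the anti-HA shares come from lists of very unequal length. With each list cut to its 553 strongest regions, 51.3% of members were bound in ΔM2-HA, 53.8% in Δ42-HA, 7.69% in ΔZF-HA and 44.9% in wt-HA flies.

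With anti-Mzfp1, 30 members were bound in ΔM2-HA flies (38.5%, 28.4 to 49.6%), beside 12.6% of all genes. In Δ42-HA flies 45 were bound (57.7%, 46.6 to 68.0%), beside 16.4% of all genes. In wt-HA flies 46 were bound (59.0%, 47.9 to 69.2%), beside 14.2% of all genes. In y1w1118 adults 31 were bound (39.7%, 29.6 to 50.8%), beside 14.3% of all genes. In embryos 18 members were bound with the rat antibody (23.1%, 15.1 to 33.6%), beside 5.71% of all genes, and 5 with the rabbit antibody (6.41%, 2.77 to 14.1%), beside 0.678%. The member share was between 2.54 times (ΔZF-HA, anti-HA) and 12.9 times (wt-HA, anti-HA) that of all genes. The intervals cover counting over genes only, since each group has 1 list.

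**Figure D1:**
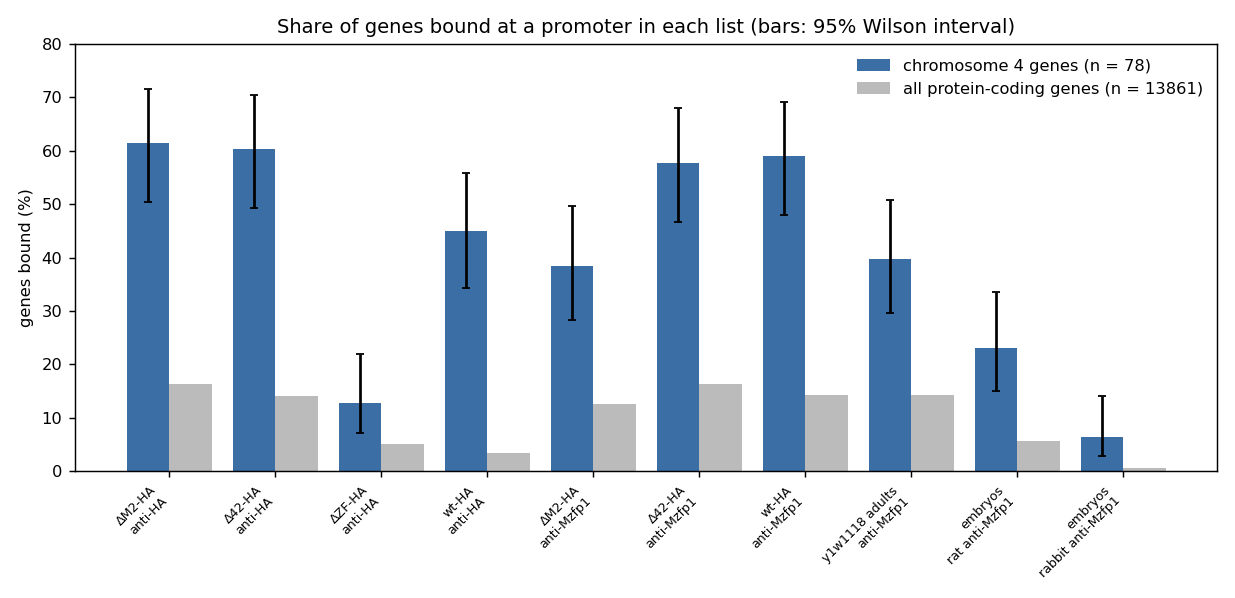
Percent of genes bound at a promoter window (y axis) in each of the 10 lists (x axis), for the 78 chromosome 4 genes (blue, bars are 95% Wilson intervals) and all 13861 protein-coding genes (grey). The blue bar is the higher in every list, and it is lowest in ΔZF-HA among the adult lists, at 12.8%.

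The 151 genes of pericentromeric heterochromatin on the 5 other large arms had shares near those of chromosome 4. With anti-HA, 49.7% of these genes were bound in ΔM2-HA, 52.3% in Δ42-HA, 27.8% in ΔZF-HA and 47.0% in wt-HA flies. With anti-Mzfp1 the shares were 38.4% in ΔM2-HA, 47.7% in Δ42-HA, 49.0% in wt-HA and 42.4% in y1w1118 adults. The ΔZF-HA list was the exception among these, with 12.8% of members bound on chromosome 4.

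In total 51 of 78 members (65.4%) were bound in 1 list or more, beside 30.6% of all genes, and 27 were bound in none. The 5 members bound in all 10 lists included anne, a lysosomal transport ATPase of the ATP13A2 kind, CG31998, Eph, the receptor of the cell surface ligand Ephrin, and 4E-T, which binds the cap-binding factor eIF4E. PlexB, a semaphorin receptor, Crk, a signalling adaptor, Zip102B, a zinc transporter, and Gyf, a partner of translational repressors, were bound in all 8 adult lists as well. A set of 28 members was bound in all 7 adult lists other than ΔZF-HA. The shares of all genes bound in all 10 lists, all 8 adult lists or these 7 were not counted, so these member counts have no baseline. Some promoters are shared, since 5 pairs of neighbouring members (10 genes) have overlapping TSS windows, so those genes are not separate observations. Other neighbours lay under 1 wide region in some lists. With anti-Mzfp1 the 46 members bound in wt-HA lay at 39 regions and the 45 of Δ42-HA at 38. The intervals treat each gene as separate.

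The strongest promoter in the 4 adult anti-Mzfp1 lists was that of anne and its neighbour Ank, which encodes the membrane skeleton protein ankyrin. That of anne alone also had the highest fold in both embryo lists and in wt-HA flies with anti-HA (63.4, against 8.26 for Ank). In the 3 variant anti-HA lists other promoters were stronger than anne, among them 4E-T with 40.5 in ΔM2-HA and CG31998 with 109.9 in Δ42-HA. In anti-Mzfp1 lists the 2 genes lay in 1 region with a fold enrichment of 79.1 in ΔM2-HA, 153.1 in Δ42-HA, 138.5 in wt-HA and 181.1 in y1w1118 adults, and 3242 to 3634 bp wide. With anti-HA, anne had 32.3 in ΔM2-HA, 46.0 in Δ42-HA, 5.43 in ΔZF-HA and 63.4 in wt-HA flies. In embryos it had 14.2 with the rat and 9.14 with the rabbit antibody. The summit was 2292 bp from the TSS of Ank in y1w1118 adults, so the call at Ank rests there on the width of that region. Separate regions had their summit 18 bp from that TSS in ΔM2-HA (10.3) and 20 bp in wt-HA (8.26) with anti-HA, and 11 bp in embryos with the rat antibody (3.09).

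CG31998 had 31.7, 99.4, 93.3 and 83.5 in ΔM2-HA, Δ42-HA, wt-HA and y1w1118 adults with anti-Mzfp1. Eph had 30.2, 53.9, 53.3 and 50.5 in the same order of lists. The ΔM2-HA value was the lowest of the 4 at both promoters, while the Δ42-HA and wt-HA values lay close together.

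4E-T had 27.6, 49.5, 44.4 and 45.5 in ΔM2-HA, Δ42-HA, wt-HA and y1w1118 adults with anti-Mzfp1. Crk had 14.7, 44.4, 36.9 and 21.2, and PlexB 9.19, 24.4, 26.0 and 11.8, in that order. At Crk and PlexB, unlike at the stronger promoters, the wt-HA value was well above that of y1w1118 adults.

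**Figure D2:**
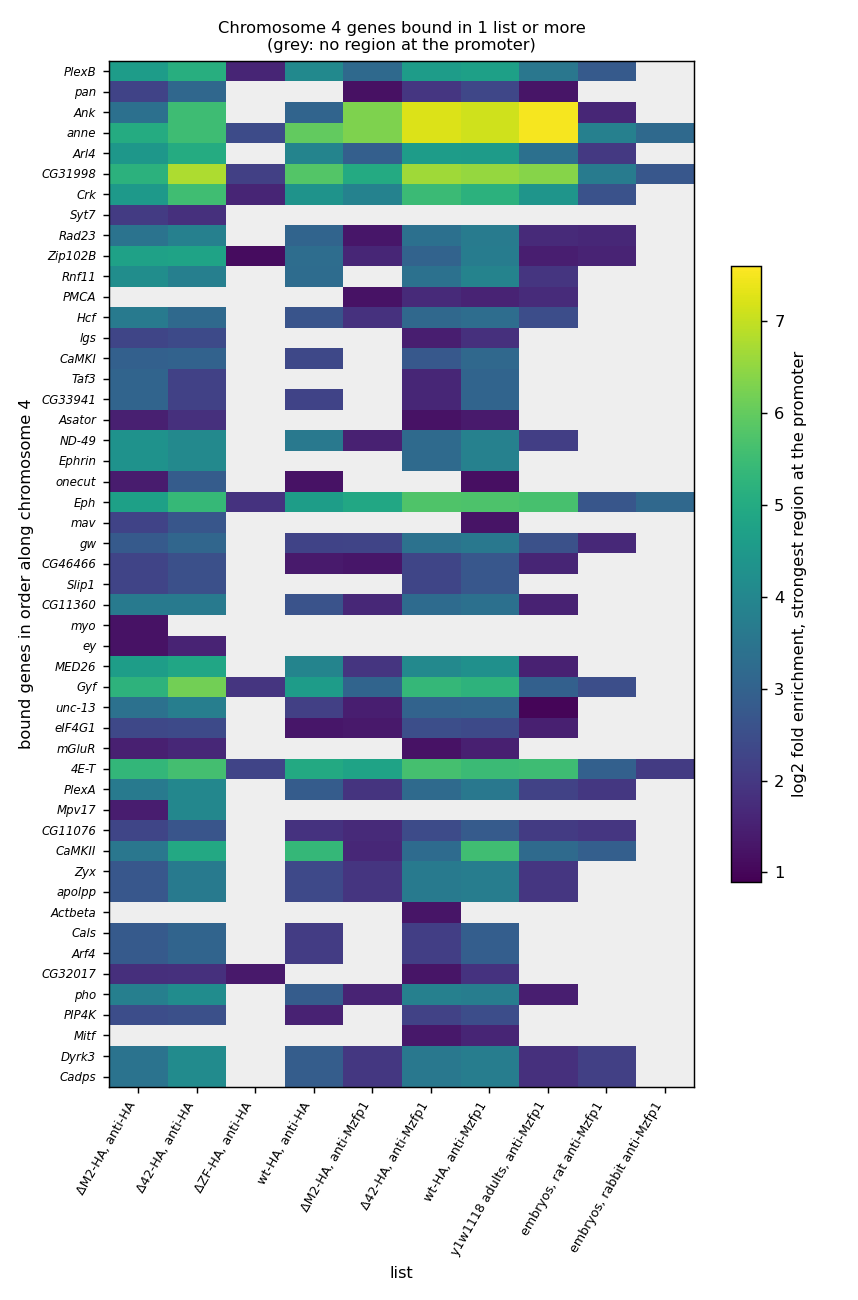
Log2 fold enrichment of the strongest region at the promoter (colour) for the bound members in order along chromosome 4 (y axis) in the 10 lists (x axis); grey cells have no region and 1 bound member is not shown. anne, CG31998, Eph and 4E-T are bright in all adult lists except ΔZF-HA, and most of the ΔZF-HA column is grey.

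Regions on chromosome 4 were compared with all regions of their list for strength and width, as a description. The median fold enrichment on chromosome 4 beside that of all regions was 4.90 against 2.92 for ΔM2-HA, 4.08 against 2.97 for Δ42-HA, 3.01 against 2.48 for ΔZF-HA and 7.20 against 3.83 for wt-HA with anti-HA. With anti-Mzfp1 it was 3.63 against 3.03 for ΔM2-HA, 9.10 against 3.43 for Δ42-HA, 9.35 against 3.36 for wt-HA and 4.39 against 3.60 for y1w1118 adults. In embryos it was 4.08 against 3.54 with the rat and 8.59 against 6.39 with the rabbit antibody. The excess over the list was thus smallest in ΔM2-HA and y1w1118 adults and largest in Δ42-HA and wt-HA among the adult anti-Mzfp1 lists. In pericentromeric heterochromatin the medians were higher still, at 6.93 in ΔM2-HA, 16.4 in Δ42-HA, 15.1 in wt-HA and 8.11 in y1w1118 adults with anti-Mzfp1. With anti-HA the heterochromatin medians were 3.565 in ΔM2-HA, 3.66 in Δ42-HA, 2.81 in ΔZF-HA and 10.1 in wt-HA, above chromosome 4 only in wt-HA.

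With anti-Mzfp1 the widths divided the lists in the same way. The median width on chromosome 4 was 511 bp in ΔM2-HA (all regions 553 bp), 905 bp in Δ42-HA (536 bp), 1222 bp in wt-HA (552 bp) and 513 bp in y1w1118 adults (496 bp). With anti-HA it was 844 bp in ΔM2-HA (481 bp), 723 bp in Δ42-HA (509 bp), 379 bp in ΔZF-HA (421 bp) and 553 bp in wt-HA (604 bp). Embryo regions were narrow, 286 bp with the rat (292 bp) and 276 bp with the rabbit antibody (281 bp). Regions covered 1.92% of chromosome 4 in ΔM2-HA, 3.42% in Δ42-HA, 4.31% in wt-HA and 2.05% in y1w1118 adults with anti-Mzfp1, beside 0.806%, 1.00%, 0.895% and 0.779% of all assembled chromosomes in the same lists. The median width in pericentromeric heterochromatin was 848.5, 1396, 1442 and 899 bp in these lists. With anti-HA the heterochromatin widths were 743.5 bp in ΔM2-HA, 750 bp in Δ42-HA, 420 bp in ΔZF-HA and 896 bp in wt-HA.

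Flies carrying the full-length transgene were first compared with untagged flies, both with anti-Mzfp1, a comparison added after the values were seen. Every one of the 31 members bound in y1w1118 adults was bound in wt-HA, and 15 were bound in wt-HA alone, beside 2.37% of all genes bound in wt-HA alone and 2.44% in y1w1118 alone. The 15 were lgs and Taf3, a Wingless cofactor and a subunit of the general factor TFIID, the onecut and Mitf transcription factors, the signalling genes CaMKI, Ephrin, mav, mGluR, Asator, Cals and PIP4K, and CG33941, Slip1, Arf4 and CG32017. The wt-HA fold at them ran from 2.24 at onecut to 14.3 at Ephrin, which shares its window with ND-49.

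At the 32 chromosome 4 regions found in both lists, the median ratio of wt-HA over y1w1118 was 2.19 for fold enrichment (range 0.765 to 6.63) and 2.30 for width. It was above 1 for fold enrichment in 27 of 32 and for width in 29 of 32, beside 31.4% and 56.1% of the 1345 shared regions of all chromosomes, where the medians were 0.874 and 1.03. The 79 shared regions in pericentromeric heterochromatin had medians of 2.18 and 1.50. The largest ratio was at MED26, a Mediator subunit, with 19.1 in wt-HA against 2.88 in y1w1118 adults. CaMKII, the calcium/calmodulin kinase, followed with 46.8 against 9.28, and pho, a Polycomb group DNA-binding protein, with 13.3 against 2.75. The lowest was at anne and Ank, with 138.5 against 181.1.

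Removing the second MADF domain was compared with the full-length protein first with anti-Mzfp1. The lists had 30 members in common, none was found only in ΔM2-HA (0) and 16 only in wt-HA, a difference in bound share of -20.5 percentage points (95% interval over genes -29.5 to -11.6). With the summit required in the window the difference was -11.5 points. Among all genes 1.70% were found only in ΔM2-HA and 3.34% only in wt-HA. The 16 were Rnf11, which had 3.82 in y1w1118 adults, and the 15 genes that wt-HA had beyond y1w1118. The members of ΔM2-HA flies were those of y1w1118 adults without Rnf11: 30 were shared, 0 were bound in ΔM2-HA alone (1.57% of all genes) and 1 in y1w1118 alone (3.29% of all genes). All but Mitf of the 16 were bound in ΔM2-HA flies with anti-HA, where 61.5% of all members and 16.3% of all genes were bound. The matching share over all genes found only in wt-HA was not counted, so this count has no baseline.

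Regions present in both lists were weaker in ΔM2-HA. At the 31 shared regions the ratio of ΔM2-HA over wt-HA had a median of 0.340 for fold enrichment and 0.427 for width, beside 0.941 and 0.986 for the 1268 shared regions of all chromosomes. It was below 1 in 31 of 31 for fold enrichment (60.6% of all shared regions) and in 30 of 31 for width (53.0%). The 67 shared regions in pericentromeric heterochromatin had medians of 0.351 and 0.473. Against y1w1118 adults, ΔM2-HA had a median fold ratio of 0.781 and width ratio of 0.976 on chromosome 4, beside 0.787 and 0.978 over all shared regions. In pericentromeric heterochromatin these medians were 0.640 and 0.831 over 66 shared regions. These comparisons share the wt-HA or the y1w1118 list and are not independent of one another.

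The members differed among themselves in this ratio. The 7 members with a fold of 20 or more in y1w1118 adults had a median ΔM2-HA over wt-HA ratio of 0.571 (range 0.340 to 0.658), and 23 shared members under 20 had 0.302 (range 0.0675 to 0.799). These are counts of genes. Among the 7, anne and Ank lie in 1 region, and its ratio of 0.571 is the median. Some members under 20 also share a region. The lowest was at CaMKII, with 3.16 in ΔM2-HA against 46.8 in wt-HA and a region of 347 bp against 1356 bp. Next came Rad23, a ubiquitin receptor of protein turnover, with 2.46 against 12.9, and MED26, with 3.80 against 19.1. The ratios nearest 1 were at an intronic region of Asator (4.16 against 4.34) and the promoter of PMCA, the plasma membrane calcium pump (2.35 against 2.94).

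**Figure D3:**
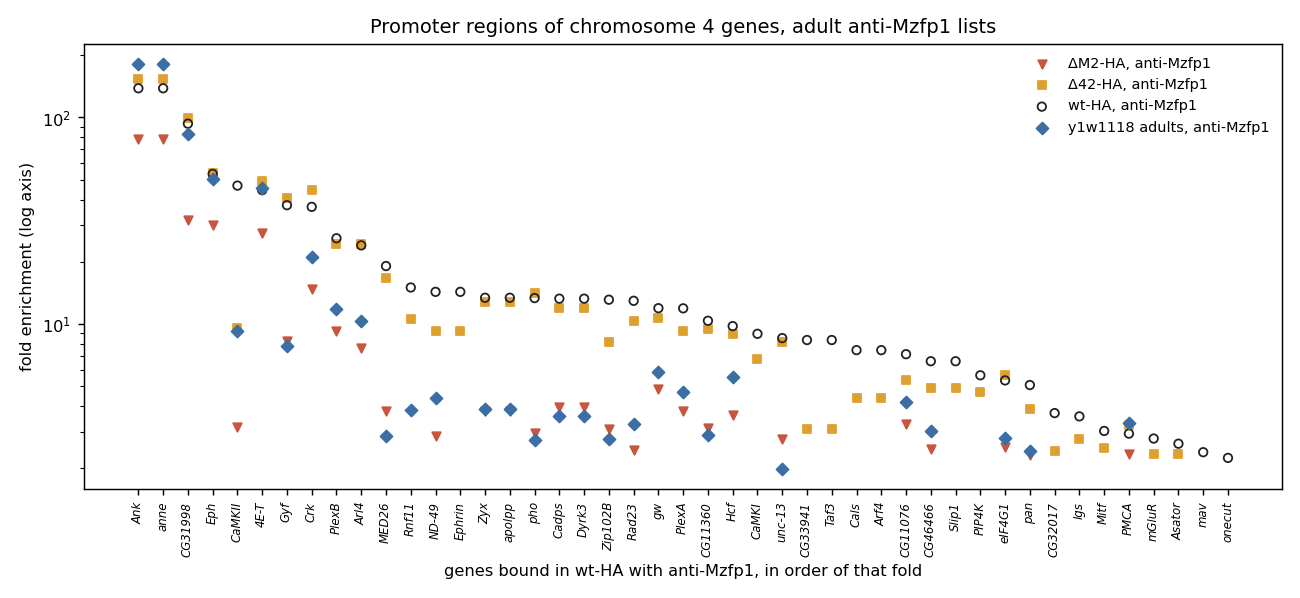
Fold enrichment on a log axis (y) for members bound in wt-HA with anti-Mzfp1 (x, in order of that fold, 1 of them not shown), in ΔM2-HA, Δ42-HA, wt-HA and y1w1118 adults. ΔM2-HA and y1w1118 points lie below wt-HA for most genes of middle strength and are missing for 16 and 15 genes; Δ42-HA points lie furthest below wt-HA at CaMKII, CG33941 and Taf3 and are missing at onecut and mav.

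With anti-HA, which sees only the tagged protein, ΔM2-HA and wt-HA compared differently. Every one of the 35 wt-HA members was bound in ΔM2-HA as well, and 13 more were bound there, a difference of 16.7 percentage points (8.40 to 24.9), beside 13.3% of all genes found only in ΔM2-HA and 0.462% only in wt-HA. The difference was 6.41 points with lists of equal length and 7.69 points with the summit required in the window. The strongest of the 13 were Ephrin (19.8), Taf3 (8.36), lgs (4.94) and Slip1 (4.85), and 3 of these reach the call through a region shared with ND-49, CG33941 or CG46466. At 37 shared regions the median ratio of ΔM2-HA over wt-HA was 1.51 for fold enrichment and 2.30 for width. It was above 1 in 33 for fold enrichment and 35 for width, beside 69.6% and 79.5% of the 434 shared regions of all chromosomes, with medians of 1.31 and 1.6. Medians over the 99 shared regions in pericentromeric heterochromatin were 1.50 and 2.29. Fold enrichment was lower in ΔM2-HA at CaMKII (11.8 against 41.0), anne (32.3 against 63.4) and CG31998 (37.2 against 56.2).

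Removing the CP190-contacting region that Δ42-HA lacks gave like numbers with anti-HA. The 35 wt-HA members were again all bound, with 12 more in Δ42-HA (difference 15.4 points, 7.38 to 23.4), beside 11.1% of all genes bound only in Δ42-HA and 0.577% only in wt-HA. The difference was 8.97 points with lists of equal length and 6.41 points with the summit required in the window. The 12 were among the 13 of ΔM2-HA, the exception being myo, a TGF-beta ligand. Ephrin (16.5), Mpv17 (16.1), pan (8.85) and mav (6.41) were the strongest. The region at Mpv17 was that of PlexA, 2428 bp wide, and the region at Ephrin was that of ND-49. The wt-HA list held overlapping regions at PlexA (7.18), at ND-49 (12.1) and near pan (3.15). Those regions missed the windows of Mpv17, Ephrin and pan. At 38 shared regions the median ratio was 1.95 for fold enrichment and 1.96 for width, above 1 in 34 and 37, beside 75.4% and 77.0% of the 435 shared regions of all chromosomes (medians 1.38 and 1.49). Medians over the 96 shared regions in pericentromeric heterochromatin were 1.81 and 2.11.

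The largest anti-HA ratios, 8.80 in Δ42-HA and 7.32 in ΔM2-HA, were at a wt-HA region beside 4E-T that the variant lists hold as part of the 4E-T region. The joined region carries the fold of the 4E-T summit. Over the whole lists, the anti-HA variant lists had 66.3% (ΔM2-HA), 68.0% (Δ42-HA) and 86.4% (ΔZF-HA) of their regions off promoters, against 26.6% in wt-HA.

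With anti-Mzfp1, whose antigen included the stretch missing from Δ42-HA, the Δ42-HA list stayed close to that of wt-HA. The lists shared 44 members, Actbeta, a TGF-beta family ligand, was bound in Δ42-HA alone (2.41), and onecut (2.24) and mav (2.39) in wt-HA alone, a difference of -1.28 percentage points (-5.62 to 3.06). Among all genes 3.48% were bound in Δ42-HA alone and 1.33% in wt-HA alone. At 42 shared regions the median ratio of Δ42-HA over wt-HA was 0.895 for fold enrichment and 0.806 for width, and it was below 1 in 28 and in 32, beside 26.5% and 47.4% of the 1489 shared regions of all chromosomes (medians 1.19 and 1.01). Medians over the 91 shared regions in pericentromeric heterochromatin were 0.947 and 0.967. The 7 strongest members had a median of 1.11 (1.01 to 1.20) and 24 others 0.904 (0.204 to 1.10). The 7 again include anne and Ank, which lie in 1 region with a ratio of 1.11. CaMKII was again the lowest, with 9.55 in Δ42-HA against 46.8 in wt-HA, near the 9.28 of y1w1118 adults. At CaMKII both wt-HA lists stood above the other lists of their antibody.

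Few members were bound by the protein without zinc fingers 3 to 6. ΔZF-HA and wt-HA shared 9 with anti-HA, CG32017 was bound in ΔZF-HA alone (2.56) and 26 in wt-HA alone (difference -32.1 points, -43.0 to -21.1), beside 3.97% of all genes bound in ΔZF-HA alone and 2.40% in wt-HA alone. The shared 9 were the 5 members bound in all lists with PlexB, Crk, Zip102B and Gyf. The strongest of the 26 were CaMKII (41.0), MED26 (15.2), Arl4 (15.1), which encodes a small GTPase of the Arf family, and ND-49 (12.1), a subunit of respiratory complex I.

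At the 10 shared regions the median ratio of ΔZF-HA over wt-HA was 0.156 for fold enrichment and 0.519 for width. The fold ratio was below 1 in 9 of them and the width ratio in 10, beside 75.0% and 82.4% of the 188 shared regions of all chromosomes (medians 0.281 and 0.595) and medians of 0.153 and 0.461 over 51 shared regions in pericentromeric heterochromatin. CG31998 had 4.46 in ΔZF-HA against 56.2 in wt-HA, and Gyf 3.81 against 24.1. The exception was an off-promoter region near the end of the chromosome, 3.83 against 2.56.

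**Figure D4:**
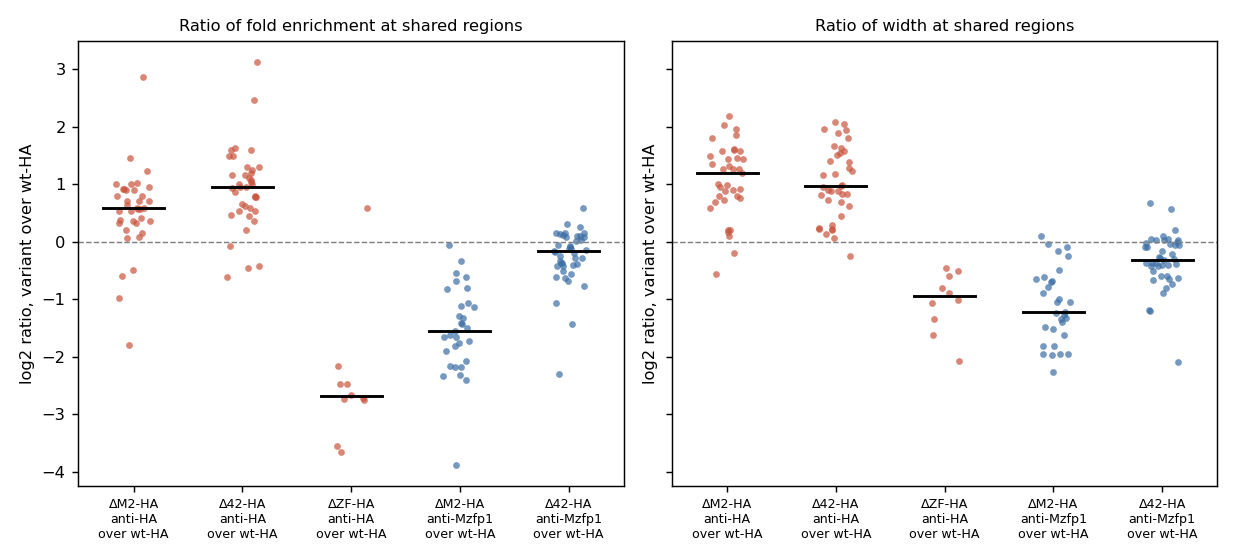
Log2 ratio of each variant over wt-HA at shared chromosome 4 regions, for fold enrichment (left) and width (right), with anti-HA (red) and anti-Mzfp1 (blue); points are regions, black lines medians and the dashed line equality. Medians of the fold ratio are 1.51, 1.95 and 0.156 with anti-HA for ΔM2-HA, Δ42-HA and ΔZF-HA, and 0.340 and 0.895 with anti-Mzfp1 for ΔM2-HA and Δ42-HA.

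The antibodies were also compared in wt-HA flies. Anti-HA found 35 of the 46 members that anti-Mzfp1 found and 0 besides (0.281% of all genes by anti-HA alone), while 11 were found by anti-Mzfp1 alone (11.1% of all genes). In y1w1118 flies, 18 members were bound in adults and in embryos with the rat antibody, 13 in adults alone (9.16% of all genes) and 0 in embryos alone (0.548%). The 13 included Hcf, a chromatin regulator (5.56 in adults), ND-49 (4.39) and pan (2.42). At pan and pho, both among the 13, the rat embryo list held a region that overlapped the adult one but missed the TSS windows. These embryo regions had 3.58 near pan and 3.50 near pho, so both calls rest on where region edges fall.

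Members were also counted by gene class, in lists that hold 18, 19 and 7 of them. Of 18 transcription and chromatin factors, 8 were bound in ΔM2-HA, 8 in Δ42-HA, 0 in ΔZF-HA and 4 in wt-HA flies with anti-HA, where 61.5%, 60.3%, 12.8% and 44.9% of all members and 16.3%, 14.0%, 5.04% and 3.48% of all genes were bound. With anti-Mzfp1, 4 were bound in ΔM2-HA, 7 in Δ42-HA, 8 in wt-HA and 4 in y1w1118 adults, namely pan, Hcf, MED26 and pho, where 38.5%, 57.7%, 59.0% and 39.7% of all members and 12.6%, 16.4%, 14.2% and 14.3% of all genes were bound in the 4 lists. None of 9, which were ci, NfI, dati, zfh2, Sox102F, fd102C, fuss, toy and sv, was bound in any of the 10 lists, and ey was bound only with anti-HA in ΔM2-HA (2.36) and Δ42-HA (2.95). anne stood in that list as first drawn up and was taken out as a transport ATPase; with it the y1w1118 count is 5 of 19.

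Of 19 signalling and neuronal genes, 9 were bound in ΔM2-HA, 14 in Δ42-HA, 14 in wt-HA and 9 in y1w1118 adults with anti-Mzfp1, with median folds of 3.94, 9.28, 12.6 and 9.28. In the same 4 lists 38.5%, 57.7%, 59.0% and 39.7% of all members were bound. Of all genes 12.6%, 16.4%, 14.2% and 14.3% were bound there. Only Gat and bt, a GABA transporter and the muscle protein projectin, were bound in none of the 10 lists. In 1 list or more 65.4% of all members and 30.6% of all genes were bound. Of 7 genes of RNA, translation and protein turnover, Rad23, gw, Gyf, eIF4G1 and 4E-T were bound in these 4 lists, with median folds of 4.86, 10.7, 12.9 and 5.87. Zip102B, a zinc transporter, and Slip1 stood in that list as first drawn up and were taken out; with them 6, 7, 7 and 6 of 9 were bound. JYalpha and Pur-alpha were bound in none of the 10.

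Off-promoter regions, those that touched no TSS window of any annotated gene, were few in most lists. Anti-HA lists held 17 among 67 chromosome 4 regions for ΔM2-HA (25.4%, Wilson interval 16.5 to 36.9%) and 29 among 76 for Δ42-HA (38.2%, 28.1 to 49.4%). The ΔZF-HA list held 8 among 20 (40.0%, 21.9 to 61.3%) and the wt-HA list 6 among 40 (15.0%, 7.06 to 29.1%). With lists of equal length the shares were 7.89% in ΔM2-HA, 7.89% in Δ42-HA, 22.2% in ΔZF-HA and 15.0% in wt-HA, so the order of ΔM2-HA and Δ42-HA against wt-HA turned. The full-list shares are lower than the 66.3%, 68.0%, 86.4% and 26.6% over all regions of the same lists. With anti-Mzfp1 the ΔM2-HA list had 5 of 35 (14.3%), the Δ42-HA list 5 of 44 (11.4%), the wt-HA list 7 of 48 (14.6%) and the y1w1118 list 4 of 33 (12.1%), beside 15.5%, 16%, 12.7% and 13.0% over all regions. In embryos they were 7 of 25 with the rat antibody (28%) and 0 of 5 with the rabbit antibody (upper bound 43.4%).

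Off-promoter regions were weaker than regions at promoters in all adult lists except that of y1w1118. Their median fold enrichment was 2.63 in ΔM2-HA, 2.87 in Δ42-HA, 2.59 in ΔZF-HA and 2.87 in wt-HA with anti-HA, where regions at promoters had 7.38, 8.85, 3.64 and 7.82. With anti-Mzfp1 the medians were 2.96 in ΔM2-HA, 5.29 in Δ42-HA, 4.34 in wt-HA and 5.04 in y1w1118 adults, where regions at promoters had 3.70, 9.29, 11.9 and 4.20. Merged over the lists they formed 45 sites, of which 20 overlapped a region of 1 list and 6 overlapped regions of 5 or more, promoter regions included.

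Of these sites 14 lay in non-coding parts of exons, 13 in coding exons, 10 between genes and 8 in introns. With anti-HA, coding exons held 5 of the 17 regions of ΔM2-HA, 8 of the 29 of Δ42-HA, 5 of the 8 of ΔZF-HA and 0 of the 6 of wt-HA.

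Counting off-promoter regions only, the site found in the most lists, 8, was the intergenic stretch chr4:696466-697297, 782 bp from the nearest start of ey, the eye selector gene. It had 5.93 in ΔM2-HA, 9.62 in Δ42-HA, 8.64 in wt-HA and 8.37 in y1w1118 adults with anti-Mzfp1 and 5.51 in embryos with the rat antibody, against 3.31, 2.97 and 2.58 in ΔM2-HA, Δ42-HA and wt-HA with anti-HA. With promoter regions counted as well, the sites near pan (chr4:68452-69056) and pho (chr4:1181948-1182152) were also found in 8 lists. An intron of Cadps, which acts in the release of dense-core vesicles, held a site in 7 lists (chr4:1232531-1235104), with 2.96 in ΔM2-HA, 5.29 in Δ42-HA, 11 in wt-HA and 5.27 in y1w1118 adults with anti-Mzfp1 and 9.84, 6.14 and 9.33 with anti-HA in ΔM2-HA, Δ42-HA and wt-HA. An intron of Asator, a tau-tubulin kinase relative, held one in 6 lists (chr4:486496-486898), with 4.16, 5.39, 4.34 and 4.81 in ΔM2-HA, Δ42-HA, wt-HA and y1w1118 adults with anti-Mzfp1. A site in a coding exon of dati (chr4:376013-376667) was present in the ΔM2-HA (4.82), Δ42-HA (5.37) and ΔZF-HA (3.27) lists of anti-HA and in no other list.

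**Figure D5:**
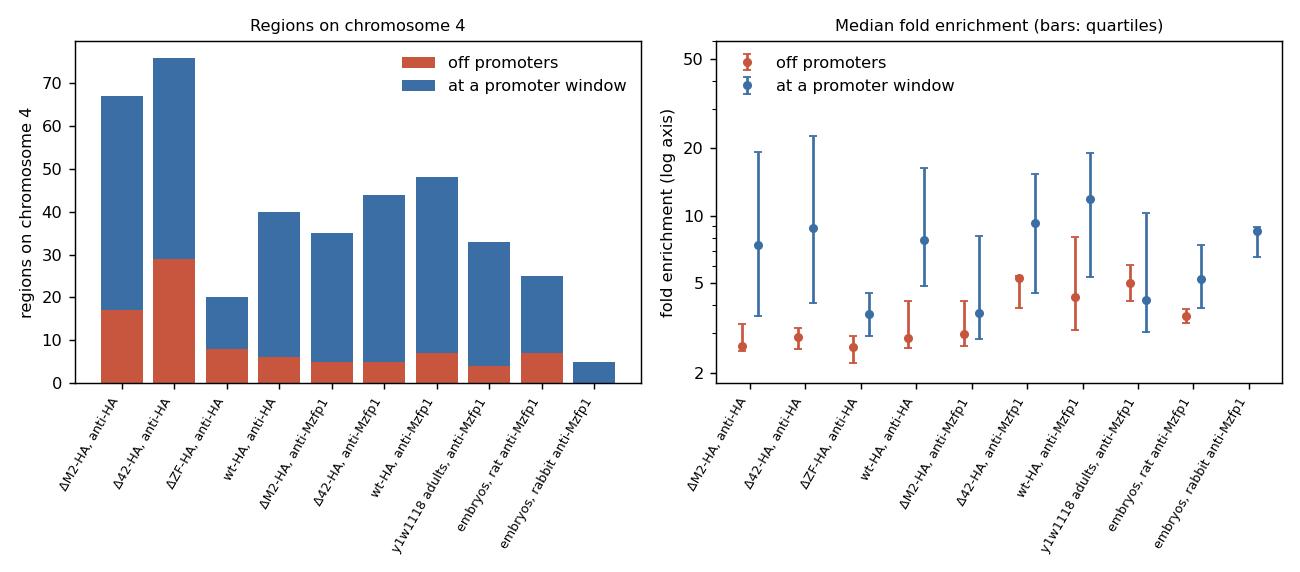
Left, number of regions on chromosome 4 in each list, off promoters (red) and at a promoter window (blue). Right, median fold enrichment on a log axis with quartiles for the same classes; the 0 off-promoter regions of the rabbit list give no point. The lists are shown at full length, where the off-promoter count is highest in Δ42-HA with anti-HA, 29 (3 with lists of equal length), and the off-promoter median is below the promoter median in 8 of 9 lists, the exception being y1w1118 adults.

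Matrix matches on chromosome 4 were next set beside those on other chromosomes. A match lay within 100 bp of the summit in 7 of 33 chromosome 4 regions in y1w1118 adults (21.2%, Wilson interval 10.7 to 37.8%), against 30.4% of regions on other chromosomes, which include the training regions. The shares were 22.9% against 24.6% in ΔM2-HA, 20.5% against 27.5% in Δ42-HA and 14.6% against 25.9% in wt-HA with anti-Mzfp1. In these 4 adult anti-Mzfp1 lists the other-chromosome share lay within the interval of the chromosome 4 share. In embryos with the rat antibody they were 8.00% (2.22 to 25.0%) against 26.2%, outside that interval. With anti-HA the share was higher on chromosome 4 in 3 lists. It was 7.46% (3.23 to 16.3%) against 2.08% in ΔM2-HA, 6.58% (2.84 to 14.5%) against 1.67% in Δ42-HA and 12.5% (5.46 to 26.1%) against 10.1% in wt-HA. The other-chromosome share lay outside the interval in ΔM2-HA and Δ42-HA, where intervals cover counting over regions of 1 list only. In these lists 66.3% and 68.0% of all regions lay off promoters, against 25.4% and 38.2% on chromosome 4. The part of this in the match shares was not tested. In ΔZF-HA with anti-HA, 0 of 20 chromosome 4 regions had a match (upper bound 16.1%) against 0.357% elsewhere. Flanks 500 bp away had a match in 1.52% on chromosome 4 in the y1w1118 list.

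Over all TSS windows, 15 of 78 members (19.2%) held a match, against 12.5% of all genes, and 10 (12.8%) held TATCGATA against 9.59%. Of the 51 members bound in 1 list or more 14 held a match (27.5%), and of the 27 bound in none only fuss did. The same shares were not counted over all genes bound in 1 list or more (30.6% of all genes) or in none. This contrast therefore has no baseline. Of the members bound in y1w1118 adults 10 of 31 (32.3%) held one, against 36.1% of the 1954 genes bound there on other chromosomes. The ΔM2-HA over wt-HA fold ratio with anti-Mzfp1 had a median of 0.425 (0.302 to 0.959) at the 6 shared regions whose wt-HA region had a match, against 0.326 (0.0675 to 0.686) at 25 without. These ranges overlap, and 6 of 7 wt-HA regions with a match were found in ΔM2-HA against 25 of 41 without.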

How the data were processed

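Per the methods of the study, reads were trimmed by the authors (cutadapt, then sickle) and aligned to dm6 with bowtie2 (adults) or bowtie (embryos), and duplicates, non-unique and blacklisted reads were removed. Peaks were called with MACS2 against preimmune controls, of which the labels list 5 libraries. Adult calls used p 0.01 and irreproducible discovery rate (IDR) limits of 0.05 for replicates and 0.01 for pseudoreplicates, and embryo calls p 1e-05. The deposited lists give positions, fold enrichment (a ratio) and −log10 p, and the deposited IDR score is −log10 of the IDR made by the authors' pipeline. A further 76 columns of the lists (q-values, scaled scores, local IDR and the positions of the IDR inputs) were not used. In adult lists the fold is that of the first IDR input, so it describes 1 library or pool. IDR values run to 0.05 in the ΔZF-HA anti-HA, Δ42-HA anti-Mzfp1 and y1w1118 lists and to 0.01 in the other adult lists. Over chromosome 4, the deposited −log10 p score of the second input over the first had medians of 0.932 to 1.37. Number of reads per library is unknown. Lists were therefore also compared at equal length, which is not a measure of depth.

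Genes came from Ensembl release 115 (coordinates of all 80 chromosome 4 genes equal those of RefSeq) and sequence from RefSeq dm6. Regions shared between lists overlapped by at least 1 bp, and a reference region was set against the strongest region over it. Each group has 1 list, so no p-value was computed. Intervals are 95% Wilson intervals or, for differences, normal intervals over genes. The fixed lists matched genes by symbol. 1 bound member is counted but not reported by name here. Other members named are those among the 8 strongest in y1w1118, up to 4 bound in 1 list of each comparison, the fixed gene lists, the 3 strongest off-promoter regions per list and groups of 5 or fewer; CaMKII, Rad23, MED26, pho, PMCA, Gyf and Asator as extremes of a ratio were named after their values were seen. The members and lists were chosen with earlier results of these data known. Scripts (Python 3.11.15, numpy 2.4.6, pandas 2.3.3) were tested on simulated data. Alternatives covered the TSS window, the summit, the overlap, stricter lists, lists of equal length and the matrix settings.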

Additional observations from a re-analysis of the deposited data

Results flagged for a closer look

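At shared chromosome 4 regions the median ratios of ΔM2-HA and of Δ42-HA over wt-HA lay above 1 with anti-HA and below 1 with anti-Mzfp1. For Δ42-HA with anti-Mzfp1 the quartiles of the fold ratio were 0.752 and 1.06, which include 1, and 14 of 42 regions lay above 1. The median ratio of ΔM2-HA over wt-HA for fold enrichment was 1.505 with anti-HA and 0.3401 with anti-Mzfp1, and for width 2.298 and 0.4274. For Δ42-HA over wt-HA the median fold ratio was 1.951 with anti-HA and 0.8945 with anti-Mzfp1, and the width ratio 1.961 and 0.8055. The difference between antibodies was not tested, since each group has 1 list. Over all shared regions the fold medians of ΔM2-HA were 1.31 with anti-HA and 0.941 with anti-Mzfp1, and those of Δ42-HA 1.38 and 1.19. Beside these ratios, the anti-HA lists of the variants hold 6192 to 6215 regions against 553 for wt-HA, and the anti-Mzfp1 lists 1611 (ΔM2-HA) and 1994 (Δ42-HA) against 1684.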

How the results depend on the processing

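Of 186 alternative values, 161 stayed within the interval (for ratios, the quartiles) of the value reported and 25 moved outside it. With anti-HA, lists of equal length turned the order of ΔM2-HA and Δ42-HA against wt-HA in off-promoter share. Asking for the summit in the TSS window gave bound shares of 47.4% (ΔM2-HA) and 46.2% (Δ42-HA) with anti-HA and 44.9% (Δ42-HA) and 46.2% (wt-HA) with anti-Mzfp1, differences from wt-HA of 7.69 (ΔM2-HA) and 6.41 points (Δ42-HA) with anti-HA and -11.5 points (ΔM2-HA) with anti-Mzfp1, and off-promoter shares of 41.8% and 51.3% in ΔM2-HA and Δ42-HA with anti-HA. A fold of at least 3 gave a bound share of 28.2% in ΔM2-HA with anti-Mzfp1 and off-promoter shares of 13.0% (ΔM2-HA), 20.0% (Δ42-HA) and 18.2% (ΔZF-HA) with anti-HA. Lists of equal length gave a difference of 6.41 points for ΔM2-HA and off-promoter shares of 7.89% for both ΔM2-HA and Δ42-HA with anti-HA. A window of 500 bp gave an off-promoter share of 5.71% in ΔM2-HA with anti-Mzfp1. With 50% reciprocal overlap the width ratio was 1.66 (ΔM2-HA) and 0.680 (ΔZF-HA) with anti-HA and 0.657 (ΔM2-HA) with anti-Mzfp1, over 17, 4 and 13 regions. A match within 50 bp of the summit gave 2.63% in Δ42-HA with anti-HA, 8.57% and 6.25% in ΔM2-HA and wt-HA with anti-Mzfp1, and 0.0% in embryos with the rabbit antibody, as did the stricter matrix threshold. The cause of these moves was not tested. Lists of equal length were made within anti-HA (553 regions) and adult anti-Mzfp1 (1611 regions), not for embryos.

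No paired analysis was possible because each group has 1 list made from its libraries. Leaving out a library was not possible for the same reason. Fold enrichments depend on library depth and control, which differ between lists, and are not scaled between them.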
